A study of Sus scrofa with 6 samples.

Results

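Endocrine cells of the piglet ileum were examined across the neonatal period if neurotensin (NTS), peptide YY (PYY) and proglucagon (GCG) led their hormone RNA. The lead was over SST, and over CCK and GIP together, and other peptide hormones did not enter it. NTS, PYY and GCG are the transcripts of the cells named L and N. The members were single-cell barcodes with at least 1000 unique molecular identifiers (UMIs, each 1 counted transcript) and 500 genes. Each held at least 10 UMIs of CHGA and CHGB together, fewer than 3 of TPH1, and more of NTS, PYY and GCG together than of SST, and more than of CCK and GIP together. This rule found 164 members among 775 endocrine cells (CHGA and CHGB of at least 10 UMIs) and among 76099 cells of sufficient depth. The other 611 endocrine cells were 433 with at least 3 TPH1 UMIs, called enterochromaffin cells below, 47 led by SST, called D cells, and 131 left over. The 131 are named for CCK and GIP of I and K cells, but 107 of them held no UMI of either hormone, so they are called the remaining endocrine cells. All these 9 genes chose the classes, so their values are given as a description.

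The study followed large white piglets fed by their sows, on days 0, 1, 3, 7, 14 and 21 after birth, with 5 animals at each age and 3 sows in all by its methods. Animals were male by the labels. Ileal mucosa was scraped, taken apart with EDTA and an enzyme, and loaded as 1 library of the 10x Chromium system for each age, and how the cells of the animals were combined is not given in the sources used here. No animal received a treatment or carried an allele that the labels name. With 1 library for each age, age and library cannot be told apart and no difference between ages was tested. The 6 libraries held 77391932 to 100348769 UMIs in all barcodes and 10836 to 15956 cells of sufficient depth, and intervals below are exact 95% intervals that cover counting error only. Cells with a UMI of EPCAM, an epithelial surface protein, made up 34.9% of the cells on day 0 and 0.0507% on day 21, while cells with a UMI of PTPRC, the leukocyte antigen CD45, went from 48.3% to 93.3%.

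L cells and N cells are open-type endocrine cells of the distal gut that sense the lumen and release peptides at their base. L cells make peptide YY, which slows transit and reduces appetite, and proglucagon, which they cut to glucagon-like peptides that promote insulin release and mucosal growth. N cells make neurotensin, which is released by fat and slows motility, and cells that hold more than 1 of these peptides are well known. CHGA and CHGB encode chromogranins, acidic proteins of the secretory granule. In the assembly Sscrofa11.1, with each range covering the whole gene, NTS lies at chr5:96261299-96272947, PYY at chr12:19190703-19208373, GCG at chr15:68800557-68810268 and CHGA at chr7:114345542-114357799.

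The members of day 0 fell into 2 sets by the amount of hormone RNA, and only the first had the level its label calls for. Among the 147 members of day 0, 82 held 25 to 5571 UMIs of NTS, PYY and GCG together, with a median of 1704. The other 65 held 1 to 6 such UMIs, with a median of 1, and no cell lay between 6 and 25. The first set is called hormone-rich and the second hormone-poor, with a dividing value of 20 UMIs chosen after the values were seen, so nothing between the sets was tested. Over all ages there were 91 hormone-rich and 73 hormone-poor members.

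**Figure D1:**
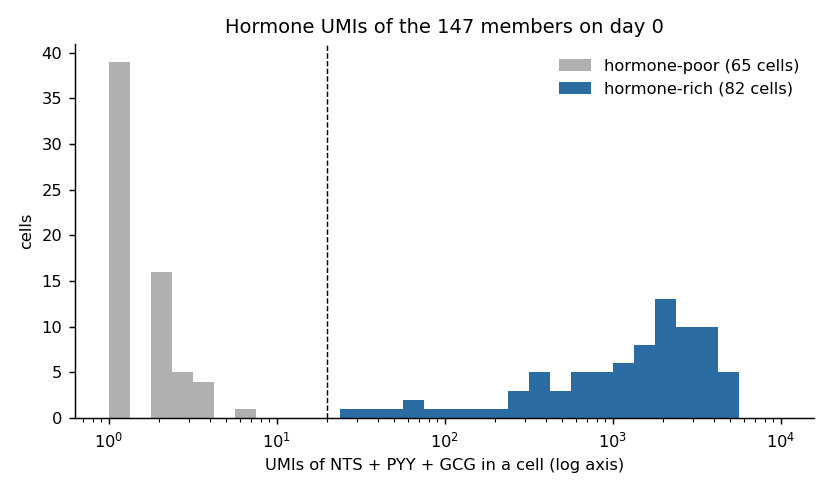
Number of day 0 members (vertical axis, cells) by their sum of NTS, PYY and GCG UMIs (horizontal log axis), with a dashed line at 20 UMIs. The 65 hormone-poor members sit at 1 to 6 UMIs and the 82 hormone-rich members at 25 to 5571.

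Low counts of hormone RNA were also found in cells that should lack it. On day 0, 28.2% of 5434 cells with immune markers and no chromogranin UMI held at least 1 NTS UMI, at a median depth of 3420 UMIs, and 0.294% held 7 or more. The same share was 29.6% among enterochromaffin cells, at a median of 4561 UMIs. Barcodes with 100 UMIs or fewer, which stand for RNA free in the suspension, carried 23.2 NTS, 7.51 PYY and 1.99 GCG UMIs per 10000. The hormone-poor members hold at least 1 hormone UMI by the rule, so these shares cannot be set against theirs, and the part of free RNA in their counts was not tested. TPH1, the first enzyme of serotonin synthesis, was in the hormone-poor members of day 0 at 0 in 12 cells, 1 UMI in 24 and 2 UMIs in 29, whereas 80 of the 82 hormone-rich members held 0.

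Depth and markers of other cells differed between the sets as well. The median was 7189 UMIs in the hormone-rich, 3202 in the hormone-poor and 4109 in the other endocrine cells of day 0. Median CHGA was 14, 32 and 46 UMIs in the same order, and median CHGB was 1, 13 and 19 UMIs. At least 3 UMIs of immune and stromal markers were found in 18.3% of the hormone-rich, 36.9% of the hormone-poor and 29.3% of the other endocrine cells. In UMIs per 10000 outside the 9 genes of the rule, the stromal list summed to 0.189 in the hormone-rich, 9.84 in the hormone-poor and 3.77 in the enterochromaffin cells, and the immune list to 8.78, 7.49 and 4.48. Of the cells above 40000 UMIs on day 0, 1 was hormone-rich, 2 were hormone-poor and 13 were other endocrine cells. The hormone-rich one held 160665 UMIs and 231 hormone UMIs, and levels in the sets are given without cells of this depth. The part of these values in the results was not tested. No member barcode occurred among the cells of another library, while each pair of libraries shared 31 to 68 barcodes.

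Cells just inside and just outside the limits of the rule on day 0 are described here without a test. The 22 members with 10 to 12 chromogranin UMIs had a median of 1706 hormone UMIs, and the 30 cells with 7 to 9 had a median of 574.5. The 41 members that led by 1 hormone UMI had a median of 1 hormone UMI, and the 97 cells that tied or were 1 behind had a median of 0. A lead of 1 UMI goes with low hormone counts almost by construction, so nothing is read from that limit. There were 30 members with 2 TPH1 UMIs, with a median of 2 hormone UMIs, and 25 cells with 3 that would otherwise be members, with a median of 1.

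Hormone RNA took a large share of the transcripts of hormone-rich members. On day 0 their 81 cells of up to 40000 UMIs held 2332 UMIs of the 3 hormones per 10000 of all UMIs, and single cells ranged from 119.5 to 4741. NTS stood at 1961 (95% interval 1950.1 to 1972), with a median of 2105 over cells and a range from 0 to 4555. PYY stood at 349.6, with a median of 88.6 and a highest value of 3743. GCG stood at 21.7, with a median of 0 and a highest value of 662. UMIs are counted once for each transcript end, so these levels do not scale with transcript length. NTS was thus the main hormone RNA, and GCG was high in few cells.

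Most hormone-rich members were either almost all NTS or almost without it. Of the 82 on day 0, NTS made up over 90% of the 3 hormones in 57, under 10% in 17 and a share between in 8. By the leading hormone, 62 were NTS-led, and 20 were led by PYY and GCG together. At least 3 UMIs of NTS and PYY were found together in 55 cells, all 3 hormones in 5, NTS alone in 5, NTS and GCG in 1, PYY and GCG in 7, and PYY alone in 9. Of the 62 NTS-led cells, 56 held at least 3 PYY UMIs, up to 334. Of the 20 PYY- or GCG-led cells, 4 held at least 3 NTS UMIs, up to 162. For comparison, at least 3 UMIs of NTS were found in 1.66% and at least 3 of PYY in 0.276% of the immune cells of that library, at a median of 3420 UMIs against 7189 in hormone-rich members, and the part of free RNA in the low counts was not tested.

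**Figure D2:**
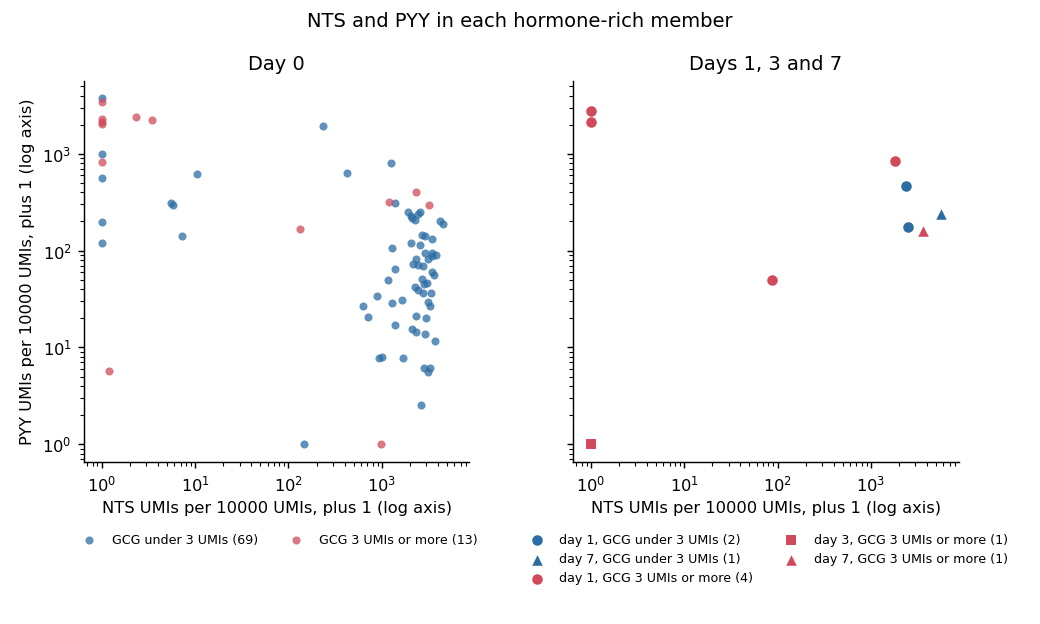
NTS (horizontal axis) against PYY (vertical axis) in each hormone-rich member, in UMIs per 10000 UMIs plus 1 on log axes, for day 0 (left) and days 1, 3 and 7 (right), with colour for GCG below or from 3 UMIs and shape for the age. Most of the 82 points of day 0 lie at the right with high NTS and varied PYY, and a smaller set lies at the left with high PYY and little or no NTS.

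Hormones of the rival classes were seen in part of the hormone-rich members of day 0. Cholecystokinin (CCK), which contracts the gall bladder, was at 3 or more UMIs in 19 of the 82, up to 536 UMIs. Glucose-dependent insulinotropic polypeptide (GIP) was at 199 UMIs in 1 cell. Somatostatin (SST), the inhibitory peptide of D cells, reached 3 UMIs in none of the 82.

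Members, as the rule draws them, became rare within days of birth. They were 147 of 10836 cells on day 0, or 1.36% (1.15 to 1.59), and 13 of 11494 on day 1, or 0.113% (0.0602 to 0.193). On day 3 there was 1 member, 0.0088% of the cells (0.000223 to 0.049), and on day 7 there were 3, or 0.0237% (0.0049 to 0.0694). None were found on days 14 and 21, which allows shares of up to 0.0188% and 0.0217%. Hormone-rich members alone were 0.757%, 0.0522%, 0.0088% and 0.0158% of the cells on days 0, 1, 3 and 7. The chromogranin limit left out other cells with at least 50 UMIs of the 3 hormones together. With 0, 1 to 9 and at least 10 chromogranin UMIs, such cells numbered 80, 132 and 92 on day 0. They numbered 23, 10 and 6 on day 1, 32, 1 and 2 on day 3, and 17, 7 and 2 on day 7. The 32 held no PYY, GCG or EPCAM UMI. The shares above thus hold only for cells within that limit.

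The other endocrine cells and the epithelium as a whole also became rarer from day 0 to day 3. Cells with an EPCAM UMI made up 34.9%, 15.5%, 2.24% and 4.79% of the cells on days 0, 1, 3 and 7. From day 3 to day 7 their share rose, as did that of the few members, while that of all endocrine cells fell. All endocrine cells made up 5.7%, 0.931%, 0.352% and 0.0792% of the cells in the first 4 libraries by age, and none were found later. Members were 23.8% (20.5 to 27.3) of the endocrine cells at birth and 12.1% (6.63 to 19.9) a day later. They were 2.5% (0.0633 to 13.2) of the 40 endocrine cells of day 3 and 30% (6.67 to 65.2) of the 10 of day 7. Members with an EPCAM UMI made up 3.2% (2.66 to 3.81) of all such cells at birth and 0.506% (0.232 to 0.959) a day later. The same share was 0.392% (0.00993 to 2.17) for day 3 and 0.496% (0.102 to 1.44) for day 7. For hormone-rich members alone the share of endocrine cells was 13.3% (10.7 to 16.2) at birth and 5.61% (2.09 to 11.8) a day later, with overlapping intervals. For all members, the intervals of days 1, 3 and 7 overlap in both shares, and that of day 0 lies above those of days 1 and 3 in both, and above that of day 7 among EPCAM cells only. Only 72 cells on day 14 and 7 on day 21 held an EPCAM UMI, so 0 members there allow up to 4.17% and 42.9% of them.

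**Figure D3:**
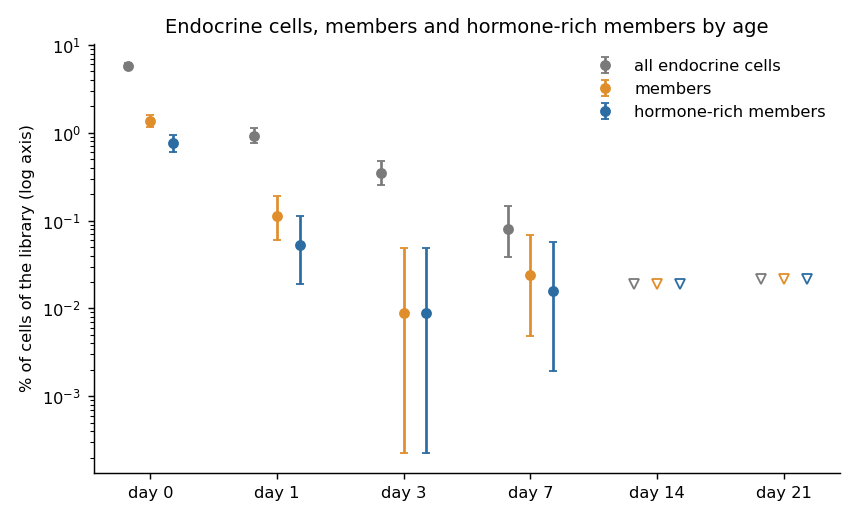
Endocrine cells, members and hormone-rich members as a percent of the cells of each library (log axis) by age, with exact 95% intervals for counting error and open triangles for the limit that a count of 0 allows. Members are at 1.36% on day 0, 0.113% on day 1 and lower still on days 3 and 7, and endocrine cells lie above them at each age with a count.

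The members after day 0 were few enough to be described singly. On day 1, 6 of the 13 were hormone-rich. NTS led in 3 of these, with 1184, 2614 and 1598 NTS UMIs beside 234, 183 and 751 of PYY and 1, 0 and 77 of GCG. PYY led in 2, with 1279 and 1296 PYY UMIs, 238 and 151 GCG UMIs and no NTS. The last was led by GCG, with 559 UMIs beside 63 of NTS and 36 of PYY. Hormones were 8.96% to 32.7% of the transcripts of these 6 cells, and the other 7 members of day 1 held 1 to 5 hormone UMIs. On day 3 the only member held 78 GCG UMIs, no NTS or PYY, and 2 TPH1 UMIs. On day 7, 2 members held 2728 and 5143 NTS UMIs with 116 and 227 of PYY, which made hormones 58.9% and 37.8% of their transcripts, and the other member held 1 hormone UMI.

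The balance of the 3 hormones differed between days 0 and 1. The 6 hormone-rich cells of day 1 held 1285 NTS, 889.6 PYY and 241.5 GCG UMIs per 10000, against 1961, 349.6 and 21.7 in the 81 of day 0. Over all members, the 3 hormones summed to 1139 per 10000 on day 0 and 1593 on day 1, and NTS was 83.9% and 53.1% of that sum. The direction of the sum turned without cells bearing immune or stromal markers, at 1646 on day 0 and 1424 on day 1, and without cells above 40000 UMIs day 0 stood at 1548. All these values rest on 1 library each, and the hormone-rich values of day 1 on 6 cells.

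Members were compared with all other endocrine cells by summing UMIs for each library and class and fitting edgeR's quasi-likelihood model with the library as a block. Days 0 and 1 had at least 10 cells in both classes, which leaves 1 residual degree of freedom, and the 9 genes of the rule were left out. Of 9235 genes tested, 83 were higher (0.899%) and 13 lower (0.141%) in members at an adjusted p below 0.05, and 454 had an unadjusted p below 0.05. The 96 calls became 47 in DESeq2, 32 without the library block and 11 with each cell thinned to 1000 UMIs, and were 113 without cells above 40000 UMIs and 102 without cells bearing immune or stromal markers. Thinning left 1756 genes to test, so a call not given below as lost with thinned cells may not have been tested there. The library labelled day 1 gave 13 members, and no fit without either library could be made. All members enter these tests, the hormone-poor ones too, so levels of the hormone-rich set are given beside them as a description. For these genes, levels are UMIs per 10000 UMIs outside the 9 genes of the rule.

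Among peptide hormones outside the rule, 2 of 9 tested genes were higher and 2 were lower in members. Secretin (SCT), which makes the pancreas release bicarbonate, was the clearest. It stood at 17.9 in the hormone-rich cells of day 0, with UMIs in 68 of 81 cells, and at 5.93 in those of day 1, against 0.909 and 0.44 in the other endocrine cells. The log2 fold change of all members was 3.45 (SE 0.37), with an edgeR adjusted p of 3.2e-10. The SCT gene lies at chr2:382783-385082. GUCA2B, the precursor of uroguanylin, which controls fluid secretion, was at 2.26 and 8.12 in hormone-rich cells against 0.66 and 0.786, with a log2 fold change of 2.0 (SE 0.37, edgeR adjusted p = 0.00019), a call lost with thinned cells (1.74) and without the library block (2.10).

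Tachykinin 1 (TAC1) and ghrelin (GHRL) were lower in members. TAC1, the precursor of substance P, was found in 1 of 81 hormone-rich cells on day 0 and in 0 of 6 on day 1, against levels of 1.28 and 2.47 in the other endocrine cells (log2 fold change -1.81, SE 0.43, edgeR adjusted p = 0.0096). That call was lost without cells bearing immune or stromal markers, where the log2 fold change was -1.96, with thinned cells (-2.25), in DESeq2 (-1.75) and without the library block (-2.13). GHRL, an appetite hormone, was at 1 UMI in the hormone-rich cells of day 0 and 0 in those of day 1, against 113 UMIs in 16 other endocrine cells and 37 in 3 (log2 fold change -5.10, SE 0.92, edgeR adjusted p = 0.00012), a call lost in DESeq2 (-4.67). GHRL passed the filter on low counts through the other endocrine cells, so nothing is read from its p-value.

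Proenkephalin (PENK), an opioid precursor, separated the sets of members. No PENK UMI was found in the 81 hormone-rich cells of day 0 or the 6 of day 1, which is at least 284.8-fold and at least 12.4-fold lower than in the other endocrine cells, at 17.9 and 11.6, with a floor of 3 counts over each group. The hormone-poor members held 7.4 on day 0 and 20.7 on day 1, and enterochromaffin cells 21.3 and 12.9. In the same hormone-poor members, NTS, PYY and GCG together stood at 3.11 and 7.25 per 10000 of all UMIs. With both sets together PENK did not pass the test (log2 fold change -1.50, edgeR adjusted p = 0.15). Gastrin (GAST), which drives gastric acid, was found in 33 of 81 hormone-rich cells of day 0, at 2.96, and in 6 of 6 on day 1, at 18.4. The other endocrine cells held 0.124 and 0.0157, and the difference did not pass (log2 fold change 5.24, SE 1.9, edgeR adjusted p = 1.0). INSL5, the insulin-like peptide of colonic L cells, reached 3 UMIs in 2 of the 82 hormone-rich cells of day 0, and motilin, galanin and VIP were at 0 there.

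Of 14 genes tested on a list of granins, granule proteins and other endocrine genes, 4 were higher in members and none lower. The median log2 fold change of the list was 0.55, against -0.04 over all genes tested. None of the 4 was a granin, and SCG2, SCG5, PCSK1N and VGF did not pass. Transthyretin (TTR), a carrier of thyroid hormone and retinol-binding protein, was at 1.34 in hormone-rich cells of day 0 and 0.312 on day 1, against 0.0566 and 0.0786 (log2 fold change 3.52, SE 0.52, edgeR adjusted p = 2.1e-06). Only 1 UMI carried the day 1 value. Secretagogin (SCGN), a calcium sensor of granule release, was at 2.05 and 4.37 against 0.279 and 0.0943 (log2 fold change 3.01, edgeR adjusted p = 5.6e-06). NNAT, a small membrane protein of endocrine cells, had a log2 fold change of 2.17 (edgeR adjusted p = 0.019), a call lost without cells bearing immune or stromal markers (2.02), in DESeq2 (2.74), without a filter on low counts (2.14) and without the library block (2.35). The call of SCGN was lost with thinned cells, at 3.08, and that of TTR in DESeq2, at 3.13. D cells of day 0 were not low in all of these genes, with SCGN at 2.18, and neither were they in CPE, at 6.63.

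The enzymes that finish peptide hormones were higher in members for 2 of 12 genes tested. Carboxypeptidase E (CPE), which trims basic residues from cut prohormones, was at 12.7 in hormone-rich cells of day 0 and 13.4 on day 1, with UMIs in 79 of 81 and 6 of 6 cells, against 2.98 and 2.66 (log2 fold change 1.63, SE 0.33, edgeR adjusted p = 0.00096). The CPE call was lost with thinned cells, at 1.11, and without the library block, at 1.64. QPCT, which forms the pyroglutamate end that neurotensin carries, and is on the granule list too, was at 1.19 and 1.87 against 0.173 and 0.189 (log2 fold change 2.31, SE 0.45, edgeR adjusted p = 0.00039). The convertase PCSK1, which cuts proglucagon to glucagon-like peptides, was at 2.2 and 1.56 in hormone-rich cells against 6.66 and 6.93, and did not pass over all members (log2 fold change -0.96, edgeR adjusted p = 0.30). On day 0 it was at 1.06 in NTS-led and 7.19 in PYY- or GCG-led hormone-rich cells.

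Against the other endocrine cells, most of them enterochromaffin, transcription factors of endocrine cells were called in both directions, 3 of 32 higher and 1 lower. PAX6, which binds the proglucagon promoter, was at 1.89 and 3.43 in hormone-rich cells against 0.238 and 0.267 (log2 fold change 2.48, SE 0.42, edgeR adjusted p = 3.6e-05). ETV1, a factor of the ETS family, was at 3.0 and 4.99 against 0.494 and 0.33 (log2 fold change 2.29, edgeR adjusted p = 2.2e-05), a call lost with thinned cells, at 1.33.

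FOXA1, a forkhead factor of gut endoderm, was lower in members (log2 fold change -1.36, SE 0.36, edgeR adjusted p = 0.038). It was at 0.629 on day 0 and 0.312 on day 1 in hormone-rich cells, against 2.77 and 3.93, and its call was lost with cells bearing immune or stromal markers left out (-1.52), with a doubled lead of the hormones (-1.35), with thinned cells (-0.61), in DESeq2 (-1.36) and without the library block (-1.41). LMX1A, a factor of enterochromaffin cells, had no UMI in the hormone-rich cells of either day, which is at least 32.5-fold lower than in the other endocrine cells on day 0. The hormone-poor members held 1.94 on day 0, beside 2.23 in enterochromaffin cells. NEUROD1, a general endocrine factor, did not pass (log2 fold change -0.25, edgeR adjusted p = 1.0), nor did FOXA2 (1.55, edgeR adjusted p = 0.073) or ISL1 (1.41, edgeR adjusted p = 0.13). FOXA2 passed under 7 alternatives, PENK under 8, GAST under 5, and ISL1, LMX1A, PCSK1 and PTGER4 under 1 each.

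**Figure D4:**
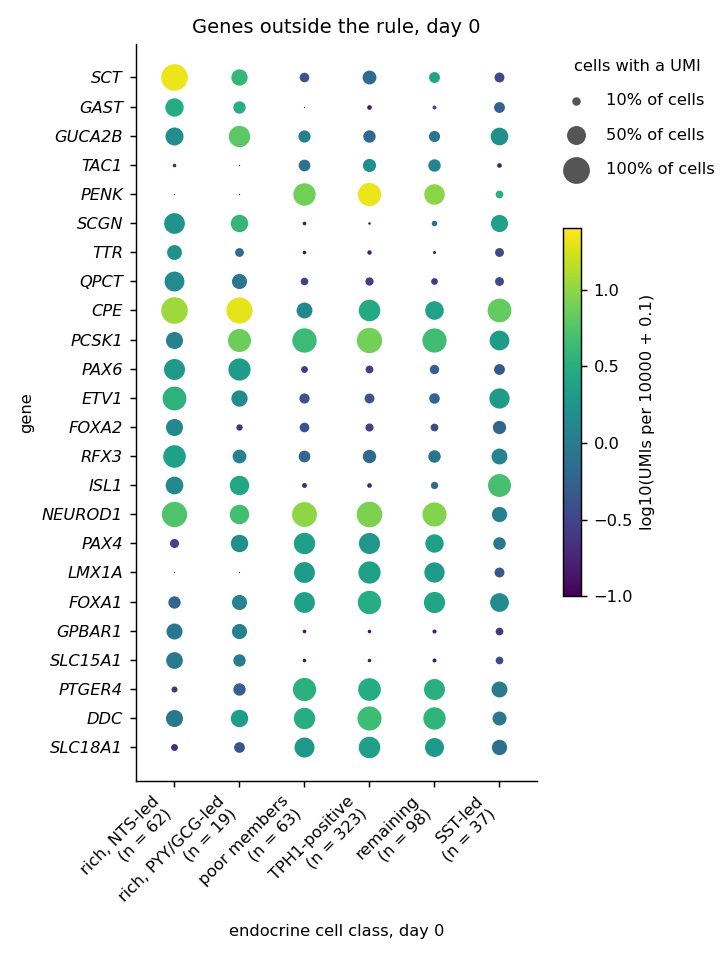
Genes outside the rule (rows) in endocrine cell classes of day 0 (columns, up to 40000 UMIs a cell), with colour for the level as log10 of UMIs per 10000 plus 0.1 and dot size for the percent of cells with a UMI. SCT, PAX6 and GPBAR1 have their larger dots in the columns of hormone-rich members, while PENK and LMX1A, at 0 there, are at 7.4 and 1.94 in the hormone-poor members.

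Of 10 receptors for nutrients and hormones tested, 1 was higher in members. GPBAR1, the receptor through which bile acids act on L cells, was at 0.818 in hormone-rich cells of day 0, with UMIs in 28 of 81, and at 2.5 on day 1, with UMIs in 5 of 6. The other endocrine cells held 0.0377 and 0.0629, and the log2 fold change was 3.89 (SE 0.51, edgeR adjusted p = 9.8e-08). The gene lies at chr15:120336196-120339506. PTGER4, a receptor for prostaglandin E2, was at 0.189 and 0.312 in hormone-rich cells against 2.82 and 2.66, and at 3.33 in the hormone-poor members of day 0. Over all members it did not pass (log2 fold change -1.31, edgeR adjusted p = 0.071).

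Of 14 genes for nutrient transport and sensing, 1 was higher and 1 lower. SLC15A1, the intestinal carrier of di- and tripeptides, was at 0.86 and 1.87 in hormone-rich cells against 0.0566 and 0.142 (log2 fold change 3.24, SE 0.49, edgeR adjusted p = 2.5e-06), a call lost without the library block (3.1). FABP6, the bile acid-binding protein of ileal enterocytes, was at 0.273 and 0.312 against 3.44 and 8.87 (log2 fold change -3.77, SE 0.42, edgeR adjusted p = 5.7e-10). Of the 564 FABP6 UMIs of other endocrine cells on day 1, 512 were in 1 cell. Of the 12 enterocyte markers tested, APOC3, an apolipoprotein, was higher in members (log2 fold change 1.77), a call lost in DESeq2 (1.72) and without the library block (1.30), and FABP6 was lower. The list summed to 35.0 in hormone-rich, 17.9 in hormone-poor and 32.6 in other endocrine cells on day 0. SLC10A2, the ileal bile acid uptake carrier, was at 0 in the hormone-rich cells of days 0 and 1, but not in the hormone-poor cells of day 0.

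By the rule of largest fold, the genes named as higher in members included CRYBA4, NTM, SPAG11B, SLITRK2, SLC7A14, AK5, C1QB, NPR1, SRCIN1, CPN1, SUCNR1, SLIT1 and LGI4, with edgeR adjusted p from 5.4e-17 to 0.00032. The calls of CRYBA4, NTM and CPN1 were lost in DESeq2, at log2 fold changes of 10.87, 7.70 and 6.46 against 10.77, 7.96 and 4.54. Those of CRYBA4, SPAG11B, SLITRK2, AK5, SRCIN1 and SUCNR1 were lost without the library block, at 10.99, 7.48, 5.49, 5.03, 4.81 and 4.30 against 10.77, 7.68, 5.57, 5.11, 4.73 and 4.35. NTM, SLITRK2, SLIT1 and LGI4 encode adhesion or guidance proteins best known from neurons. NTM was in 23 of the 147 members of day 0 and in no other endocrine cell, and its level was at least 27.5-fold higher. On day 1 it had 1 UMI in 1 member, and so did SRCIN1, SLIT1 and C1QB. With no UMI in other endocrine cells of either day, CRYBA4 and NTM passed the filter on low counts only through the members. In those cells the other genes named here were at most at 0.05 on day 0 and 0.0328 on day 1. They too passed the filter through the members, so nothing is read from any of these p-values. SLC7A14, a relative of the amino acid carriers, was found in 40 of 81 hormone-rich cells of day 0 and in 5 of 458 other endocrine cells. CPN1, a subunit of plasma carboxypeptidase N, was likewise in 40 of 81 hormone-rich cells and in 14 of 458. NPR1, the receptor of atrial natriuretic peptide, was in 22 of 81 and 4 of 458, and SUCNR1, the succinate receptor, in 10 of 81 and 2 of 458.

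A few cells made some of these values. CRYBA4, a lens crystallin, had 82 UMIs in 4 members of day 0, 63 of them in 1 cell, and none in other endocrine cells, so that its level was at least 86.9-fold higher on day 0 and at least 175.7-fold on day 1. Of its 31 UMIs in members of day 1, 28 were in 1 cell. C1QB, a complement component of macrophages, had 189 of its 191 UMIs in 1 hormone-poor cell. SPAG11B, a defensin-like peptide, had 20 of 23 UMIs of day 0 in 1 cell, and all 16 of day 1 in 1 cell. Of the list of MHC class II and antigen presentation genes, SLA-DRB1 and SLA-DQB1 were higher among 13 tested (edgeR adjusted p = 0.0017 and 0.012). Without cells bearing immune or stromal markers SLA-DRB1 turned from a log2 fold change of 1.97 to -0.33 and SLA-DQB1 went from 1.63 to 0.69, and both calls were also lost in DESeq2 and without the library block. Of the 109 SLA-DRB1 UMIs of hormone-poor cells of day 0, 88 were in 1 cell. The whole list had a median of 20.6 per 10000 over hormone-rich cells, 12.2 over hormone-poor cells and 15.1 over other endocrine cells. It also holds B2M, SLA-1, SLA-2, SLA-3, TAP1, PSMB8 and PSMB9, so these medians are not levels of MHC class II alone.

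The genes named as lower in members were KCNJ8, ASIC5, GHRL, DMBT1, CELA1, FABP6, SPP1, SPAI-2, F3, TAC1, ALDH1A1 and FOXA1. KCNJ8, a potassium channel subunit, and ASIC5, an ion channel of the acid-sensing family, had no UMI in the members of day 0 and 93 and 79 UMIs in the other endocrine cells. Their levels were at least 9.76-fold and at least 8.29-fold lower (edgeR adjusted p = 1e-04 and 0.00024). With no UMI in members of either day, both passed the filter on low counts only through the other endocrine cells. GHRL, DMBT1 and CELA1, with 1, 2 and 1 UMIs in members of day 0 and 0 on day 1, did so too. Nothing is read from the p-values of all these genes for that reason. The calls of KCNJ8 and ASIC5 were lost in DESeq2, at log2 fold changes of -5.44 and -5.68 against -8.19 and -8.06. They were also lost without the library block, at -8.06 and -8.46, and 40 of the 79 ASIC5 UMIs were in 1 cell. ALDH1A1, an enzyme of retinoic acid synthesis, was at 0.21 in hormone-rich cells, 2.92 in hormone-poor cells and 4.75 in other endocrine cells on day 0 (log2 fold change -1.52, edgeR adjusted p = 0.0068). F3, tissue factor, was at 0.335, 0.667 and 1.7 in the same order (log2 fold change -1.93, edgeR adjusted p = 0.0025). The calls of both were lost with thinned cells, at -1.53 for ALDH1A1 and -1.79 for F3, and without the library block, at -1.49 and -2.11. Those of DMBT1 and SPAI-2, at -4.19 and -2.87, were lost in DESeq2 (-4.32 and -4.49) and without the library block (-5.46 and -3.59), and that of SPAI-2 also with CHGA and CHGB of at least 5 UMIs (-2.59). CELA1 lost its call under 7 alternatives, with log2 fold changes from -3.94 to -3.40 against -3.89. SPP1, osteopontin, was concentrated, with 249 of 369 UMIs of the other endocrine cells in 1 cell.

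Several lists held no gene past the threshold against all other endocrine cells. These were ion channels (0 of 16), exocytosis machinery (0 of 26), serotonin and amine synthesis (0 of 7), folding in the endoplasmic reticulum (0 of 32), Notch signals (0 of 8), the cell cycle (0 of 19) and the mitochondrial genome (0 of 13). Markers of goblet and Paneth cells (0 of 6), tuft cells (0 of 2), crypt cells (0 of 5), immune cells (0 of 6) and stromal cells (0 of 3) were not called, and no neuron or glia marker was tested. With 96 of 9235 genes called, 0.899% higher and 0.141% lower, lists of this size hold few or no calls at the background share, so nothing is read from these zeros. Cells with TPH1 make up 433 of the 611 cells compared with, so the amine synthesis list is tied to the rule. The granule proteins SCG2, SCG5, PCSK1N and VGF did not pass, with log2 fold changes of -0.04, 0.51, 0.94 and 0.82.

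**Figure D5:**
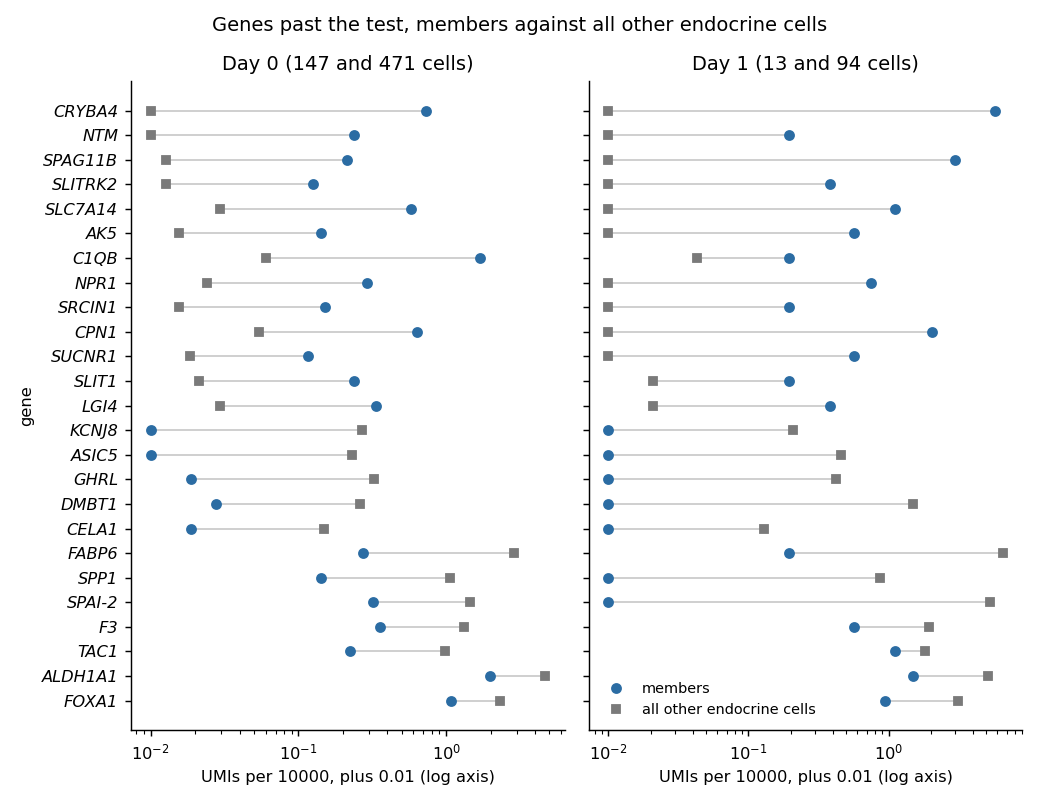
Levels (UMIs per 10000 outside the genes of the rule, plus 0.01, log axis) of 13 genes higher and 12 lower in members by edgeR, on day 0 (147 members, 471 other endocrine cells) and day 1 (13 and 94). Circles are members and squares all other endocrine cells, and genes were drawn only if their direction was the same on both days. CRYBA4 and NTM lie at the lower end of the axis in other endocrine cells, and KCNJ8 and ASIC5 do so in members.

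Members were next set against the enterochromaffin cells, which make serotonin. Of 8971 genes tested, 114 were higher (1.27%) and 32 lower (0.357%), and 525 had an unadjusted p below 0.05. The genes named as higher included CRYBA4, NTM, SCGN and the potassium channel gene KCNK16, with SCGN at an edgeR adjusted p of 1.3e-27. SCGN was in 2 of 323 enterochromaffin cells and 45 of 81 hormone-rich members of day 0, and KCNK16 in 0 and 12. CRYBA4, NTM, SCGN and KCNK16 were at or near 0 in enterochromaffin cells and passed the filter on low counts through the members. Nothing is read from their p-values for that reason. The genes named as lower were KCNJ8, DMBT1, CELA1, FABP6 and ZNF697, and ZNF697 went from a log2 fold change of -3.54 to -0.97, without a call, with CHGA and CHGB of at least 5 UMIs.

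The lists held further calls here, and whether the comparisons differ from each other was not tested. Of the 30 transcription factors tested, those higher included RFX3, PAX6, ETV1, ISL1 and FOXA2, and FOXA1 was lower. RFX3 lost its call with thinned cells (0.80 against 1.46), in DESeq2 (1.53), without a filter on low counts (1.39) and without the library block (1.47). FOXA2 lost it without cells bearing immune or stromal markers (1.96 against 1.62), in DESeq2 (1.72), without the filter (1.55) and without the block (1.63). FOXA1 lost it with thinned cells (-0.65 against -1.40), in DESeq2 (-1.42) and without the block (-1.50). Of the 8 peptide hormones, SCT, GUCA2B and GAST were higher and PENK and TAC1 lower. GUCA2B and GAST lost their calls without the block (2.31 and 6.85), and TAC1 did so in DESeq2 (-1.77) and without the block (-2.11). PENK lost its call without cells bearing immune or stromal markers (-1.87), in DESeq2 (-1.50) and without the block (-1.48). The tuft cell channel TRPM5 was higher, and so were SLA-DRA, SLA-DRB1, SLA-DQA1 and SLA-DQB1. The calls of TRPM5, SLA-DRB1 and SLA-DQB1 were lost in DESeq2 and without the block. OLFM4, a crypt marker, and RBP2 were lower, but OLFM4 went from a log2 fold change of -2.15 to -0.63 without cells bearing immune or stromal markers and to -0.37 without cells above 40000 UMIs, and RBP2 from -1.72 to -0.04 with thinned cells, all without a call. SLA-DRA and SLA-DQA1 were at 0.20 and 0.31 in place of 1.49 and 1.5 without cells bearing those markers, again without a call. In DESeq2, 22 of the 35 genes followed here lost their call, and without the library block 23 did. Without cells above 40000 UMIs, 299 genes passed in place of 146, and without the library block 41 did.

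Against the remaining endocrine cells, 5 of 5114 genes were higher (0.0978%) and 2 lower (0.0391%), while 250 had an unadjusted p below 0.05. CRYBA4, TMEM27, CPN1, ENPP2 and SCT were higher, with edgeR adjusted p from 0.0034 to 0.049, and FABP6 and SPAI-2 were lower. CRYBA4 had no UMI in the remaining cells and passed the filter on low counts only through the members. Nothing is read from its p-value. PAX6, ETV1, SCGN, CPE and GPBAR1, called above against mostly enterochromaffin cells, were thus not among the calls here. No transcription factor (0 of 26), gene of the granule list (0 of 12), processing enzyme (0 of 9) or receptor (0 of 5) was called. At these background shares such zeros are close to what the lists hold, so nothing is read from them. ENPP2, which makes lysophosphatidic acid, was in 46 of 81 hormone-rich and 2 of 63 hormone-poor cells of day 0. The count of genes called against the remaining cells was unstable. No gene passed with cells of at least 25% mitochondrial UMIs left out or without the library block. Without cells bearing immune or stromal markers, 113 passed.

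D cells were too few for a test under the same minimum, with 37 on day 0 and 6 on day 1. On day 0, 83 of 3885 genes differed more than 4-fold, without a test. With a minimum of 5 cells, edgeR called 2 of 2066 genes, both lower in members, and 79 had an unadjusted p below 0.05. These were ASIC5 (edgeR adjusted p = 0.035) and GHRL (edgeR adjusted p = 0.020). Over both days, ASIC5 had 0 UMIs in members and GHRL had 1, so nothing is read from these p-values.

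The hormone-rich members led by NTS and those led by PYY and GCG differed in other genes too. Among hormone-rich cells of day 0, SCT was at 21.2 in 62 NTS-led cells, with UMIs in 61, and at 3.82 in 19 PYY- or GCG-led cells, with UMIs in 7. RBP4, the plasma carrier of retinol, was at 11.3 in NTS-led cells, with UMIs in 54, and at 0.112 in the others, with UMIs in 1. SLC7A14 was in 38 of 62 NTS-led and 2 of 19 other cells, and CPN1 in 38 and 2. TRPM5, a calcium-activated cation channel of tuft and taste cells, showed the opposite pattern, in 1 of 62 NTS-led and 10 of 19 other cells. APOC3 was at 0.258 and 5.62, LYPD8, a protein that keeps bacteria from the mucosa, at 7.29 and 39.0, and CRYBA4 at 0 and 9.22. Some other genes of enterocytes differed in the same direction as APOC3. Among them were APOA1 at 8.19 and 70.7, ANPEP at 1.34 and 4.72, APOA4 at 0.206 and 1.12, and APOB at 0.799 and 3.82. Of the 34 APOB UMIs of the PYY- or GCG-led cells, 32 were in 1 cell. FABP2 and MGAM, also genes of enterocytes, went the other way in the fit over all members below (log2 fold change 4.56 and 3.64). The part of enterocyte RNA and of single cells in these differences was not tested. PAX6 was in 38 of 62 and 13 of 19 cells, and so was found in either kind.

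No test was possible at 10 cells of each kind in a library, because day 1 held 5 NTS-led and 8 other members. With a minimum of 5 cells over all members, edgeR called 40 of 4411 genes, 25 higher in NTS-led cells and 15 lower, and 268 had an unadjusted p below 0.05. SCT (log2 fold change 4.31, edgeR adjusted p = 7.9e-05), RBP4 (5.63, edgeR adjusted p = 0.00036), SLC7A14 (4.21, edgeR adjusted p = 0.026) and CPN1 (3.94, edgeR adjusted p = 0.0031) were among those higher. TRPM5 (-4.38, edgeR adjusted p = 0.0010) and CRYBA4 (-6.49, edgeR adjusted p = 0.00015) were among those lower. Markers of other cells were called too. The macrophage genes AIF1 (3.62) and TYROBP (4.51) and the enterocyte genes FABP2 (4.56) and MGAM (3.64) were higher in NTS-led cells, and of the 22 AIF1 UMIs in hormone-rich NTS-led cells of day 0, 21 were in 1 cell. The mitotic genes AURKA (-4.62), DLGAP5 (-3.41) and KIF22 (-2.82), with KPNA2, CDK2 and the lectin gene FCN2 (-6.85, edgeR adjusted p = 6.6e-10), were lower. The part of such cells in the calls was not tested. These genes were picked from the calls after their values were seen. Hormone-poor members, and a PYY- or GCG-led cell of 160665 UMIs, enter this fit and not the levels above. Among the hormone-poor was a cell of 131343 UMIs with 3 NTS, 2 PYY and 1 GCG UMIs, a tie counted as PYY- or GCG-led. On day 0, 109 genes differed more than 4-fold between the kinds, and 46 without cells above 40000 UMIs. The part of such large cells in the calls, those of mitotic genes too, was not tested.

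Between days 0 and 1 the members could be compared only as 2 libraries, without a test. Of 3470 genes with at least 50 UMIs over both, 17 were more than 4-fold higher on day 1 (0.49%) and 232 more than 4-fold lower (6.69%). GCG was 13.5-fold higher (12.5 to 14.6) in UMIs per 10000 of all UMIs, with 559 of its 1031 UMIs of day 1 in 1 cell. S100A9, a protein of neutrophils, was at least 478.2-fold higher with 72 UMIs in 3 cells. REG3G, an antibacterial lectin, had 98 of 99 UMIs in 1 cell, TGM3 was 155.0-fold higher with 70 UMIs in 3 cells, and G0S2 was 24.9-fold higher with 30 UMIs in 2 cells. The genes named as lower were the complement genes CFI, C3 and C1QA, OLFM4 and RETNLB, at least 3.88-fold to at least 14.2-fold, each with 0 UMIs on day 1 and, on day 0, UMIs in 6 to 18 cells. Of the 249 C1QA UMIs of day 0, 244 were in 1 cell. Without cells above 40000 UMIs the count of genes past 4-fold was 110 in place of 249, and with hormone-rich members alone it was 140. Markers of other cells were among the genes more than 4-fold lower on day 1, with 3 of 3 stromal markers (DCN, COL1A2 and COL3A1), 3 of 6 of goblet and Paneth cells (CLCA1, FCGBP and TFF3) and 3 of 9 of enterocytes (FABP1, FABP2 and RBP2), and so were 2 of 4 cell cycle genes (CENPF and TOP2A). Their part in the difference between the libraries was not tested. No transcription factor (0 of 24), gene of the granule list (0 of 14) or exocytosis gene (0 of 13) was past 4-fold, which at the background of 6.69% is close to what lists of this size hold, so nothing is read from it. GAST was the hormone outside the rule that was higher on day 1.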

How the data were processed

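Cells of piglet ileum were measured by 10x single-cell RNA sequencing in 1 library for each of 6 ages. The authors aligned reads and counted UMIs with Cell Ranger 3.1.0 (version by the file headers) against Sscrofa11.1; the deposited values are raw, unfiltered counts for each gene and barcode. The kit is version 2 in the methods and version 3 in the labels, and the series text names the cecum where the labels name the ileum. Gene positions are from the RefSeq table of Sscrofa11.1, in which all 20648 symbols were found.

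Barcodes with at least 1000 UMIs and 500 genes were kept; doublets were not removed. Counts were summed for each library and class and tested with edgeR 4.0.16 (quasi-likelihood, TMM scaling, filterByExpr, library as a block, Benjamini-Hochberg adjustment) in R 4.3.3, with at least 10 cells per class and library. The sums of both classes come from the same libraries, and the block takes up the difference between the 2 libraries. The p-values thus measure how alike the class difference was in both, with variance information shared over genes. They do not measure spread between animals. Each SE is the size of the log2 fold change divided by the square root of the quasi-likelihood F statistic. It was not fitted by the model as a standard error. DESeq2 1.42.0, other scalings, filters, gates and a thinning to 1000 UMIs were alternatives. Limits of at most 40000 UMIs and of at least 20 hormone UMIs were chosen after the data were seen. On simulated counts, 78.5% of 200 genes changed 4-fold were recovered in the comparison with all other endocrine cells (9235 genes, 7 false calls), 81.5% for enterochromaffin (8971 genes, 5 false calls) and 85% for the remaining cells (5114 genes, 11 false calls). The changed genes were drawn only from those at or above the median mean count, with 1 dispersion for all genes. Counts concentrated in single cells were not simulated. These rates do not cover genes of low counts or sums carried by 1 cell.

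Members, markers and the 21 gene lists were chosen with earlier results of these data known. Genes named are those of the rule, of the lists where a list is described, and by largest fold among genes called and of the same direction in both libraries (up to 15 in each direction against all other endocrine cells, 5 in other tests and between ages). RBP4, LYPD8 and the genes picked between NTS-led and other members were named after their values were seen. Some results are not reported here. Intervals are Clopper-Pearson for shares and Poisson for sums (scipy 1.17.1), and a count of 0 is given the limit of 3 counts. No sequence is printed, since none was in the reference tables used here.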

Additional observations from a re-analysis of the deposited data

Results flagged for a closer look

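On day 3, 71 cells held at least 20 NTS UMIs (20 to 223, median 45) with no CHGA or CHGB and fewer than 3 UMIs of PYY and of GCG, and they enter none of the comparisons above. TAC3 was found in 100% of them, against 12.5% of the other cells of that library, IL7R in 95.8% against 10.8%, KIT in 77.5% against 7.01%, NCR2 in 73.2% against 4.53% and IL22 in 45.1% against 3.07%. EPCAM was found in 1.41% and PAX6 and CPE in 0%. The libraries of days 0, 1, 7, 14 and 21 held 16, 28, 8, 9 and 0 such cells. These genes were chosen after their values were seen, and no cell type is named.

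On day 0, 80 cells held at least 50 UMIs of NTS, PYY and GCG together and no CHGA or CHGB, and so lay outside the rule for members, as did 132 cells with 1 to 9 chromogranin UMIs. In UMIs per 10000 of all UMIs, the 80 cells held 214.8 GCG, 61.7 GAST and 29.6 INSL5, while the 92 cells with at least 10 chromogranin UMIs held 17.2, 1.53 and 0.123. PAX6 was at 3.15 and 0.947, CPE at 9.89 and 6.24, and EPCAM at 6.17 and 5.83. Levels of immune genes also differed, without a test, with IL7R at 1.01 against 0.0189, CTSW at 1.93 against 0.161, SRGN at 3.23 against 0.54, TAC3 at 3.61 against 0.521 and IL22 at 0.525 against 0, and their part in these values was not tested. On day 14, where no member was found, 3 cells met the same limits on hormone and chromogranin UMIs, with 1197 NTS, 130.3 PYY and 162.4 CCK UMIs per 10000. The same 3 cells together held 31.2 SRGN, 8.92 PTPRC, 8.48 TAC3 and 4.91 IL22, and EPCAM was at 0.446. These levels are sums over the 3 cells, and 2495 of the NTS UMIs were in 1 of them. Whether the hormone and immune RNA lay in the same cells was not tested.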

How the results depend on the processing

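Against all other endocrine cells, the genes named by largest fold, the called genes of the lists and 12 uncalled genes of the text gave 670 values on the same side of the threshold, 59 that lost the call, 24 that gained one and 3 that reversed. These were SLA-DRB1, from 1.97 to -0.33 without cells bearing immune or stromal markers, and the uncalled SCG2, from -0.04 to 0.04 without those cells and 0.08 without scaling. Against enterochromaffin cells 430 kept and 70 lost their call, and against the remaining cells 42 and 47, with none reversed. Genes that a setting did not test gave no value. Thinning left 1756, 1595 and 947 genes tested in these comparisons, in that order. The count against all other endocrine cells, 96, was 165 with CHGA and CHGB of at least 5 UMIs, 47 in DESeq2, 32 without the library block and 11 with cells thinned to 1000 UMIs. Against enterochromaffin cells, 146 became 299 at up to 40000 UMIs, 60 in DESeq2, 41 without the block and 38 thinned. Against the remaining cells, 7 became 156 with CHGA and CHGB of at least 5, 113 without cells bearing immune or stromal markers, 59 without a filter on low counts, 21 at 2000 UMIs, 20 thinned, 4 at 500 UMIs and 200 genes, 2 with a doubled lead, at up to 40000 UMIs or without scaling, 1 in DESeq2, and 0 with a mitochondrial share below 25%, with RLE size factors, with the genes of the rule in the library sizes or without the block. Genes past 4-fold from D cells, 83, were 52 without cells bearing those markers and 48 in members with at least 20 hormone UMIs. Between NTS-led and other members, 109 became 188 and 33 with CHGA and CHGB of at least 5 and 20, 60 without those markers and 46 at up to 40000 UMIs. Between ages, 249 became 1250 with a minimum of 20 UMIs, 924 past 2-fold, 89 without those markers, 110 at up to 40000 UMIs and 140 with at least 20 hormone UMIs. The member share of endocrine cells was 29.1% and 17.2% on day 0 with CHGA and CHGB of at least 5 and 20, and 13.3% on day 0 and 5.61% on day 1 with at least 20 hormone UMIs. The hormone sum of 1139 per 10000 on day 0 was 1146 at 2000 UMIs, 1152 and 1161 with CHGA and CHGB of at least 5 and 20, 1148 with the mitochondrial limit, 1646 without those markers, 1548 at up to 40000 UMIs and 1859 with at least 20 hormone UMIs; the 1593 of day 1 was 1720.2 at 2000 UMIs, 1246 with CHGA and CHGB of at least 20, 1424 without those markers and 2416 with at least 20 hormone UMIs. The NTS part was 84.3% at 2000 UMIs, 85.8% and 71.8% with CHGA and CHGB of at least 5 and 20, and 83.5% without those markers on day 0, and 51.0%, 36.6% and 38.0% on day 1 for the last 3. Apart from changes in the cells or genes that a limit leaves, the cause was not tested. Of these, the limits at 40000 UMIs and at 20 hormone UMIs, and in the gene tests those at CHGA and CHGB of at least 5 and at 500 UMIs, were added after the data were seen. No fit could be made with CHGA and CHGB of at least 20, with 20 cells a class or with at least 20 hormone UMIs, which leave day 1 short of cells, nor without either library. No paired analysis was possible because each age has 1 library, and classes were paired by library in the block only. Depth limits the low genes: 30 UMIs or fewer carry several values of day 1.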
